A study of Mus musculus with 12 samples.

Results

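The 9 mouse genes Meg3, Rian, Mirg, Dlk1, Peg3, Grb10, Plagl1, Mest and Ndn are imprinted: in many tissues they are read mainly from the copy inherited from one parent. They were taken by symbol from a table of 78275 gene IDs in which the neighbouring imprinted pair Igf2 and H19 also appears, and each symbol matched 1 ID. Of the 9, the 4 genes Peg3, Mest, Plagl1 and Grb10 had enough counts to be tested, and the 5 genes Meg3, Rian, Mirg, Dlk1 and Ndn did not. Peg3 and Mest rose steeply when the cells were induced to form muscle, and Plagl1 fell. Grb10 was higher in induced than in uninduced control cells. It had enough counts to be tested only through the induced control group, so that rise is partly how it came to be tested. In cells that had received the siRNA against Zfp143, Grb10 was not called. Its counts there were low and leave room for a change in either direction.

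Many imprinted genes act on growth before birth and on stem and progenitor cells, and in mice a set of them, among them Plagl1, Igf2, H19, Dlk1, Meg3, Mest, Peg3 and Grb10, is often expressed together in fetal tissue and switched down after birth. Genes read from the paternal copy, such as Igf2, Dlk1, Mest, Peg3, Plagl1 and Ndn, stand in this set beside genes read from the maternal copy, such as H19, Meg3, Rian, Mirg and, in most tissues, Grb10. In regenerating muscle several of them, including Dlk1, Peg3 and Ndn, have been studied in satellite cells and myoblasts. The data here are total levels per gene and do not separate the parental copies.

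C2C12, an established mouse skeletal muscle myoblast line, received either the Zfp143 siRNA or the non-targeting control siRNA by lipid transfection. Zfp143 encodes the zinc finger transcription factor ZNF143. Uninduced cells stayed in growth medium with 10% fetal bovine serum and were collected 24 hours after transfection; induced cells were moved at that time to medium with 1% horse serum and collected on day 5. The groups, with 3 polyadenylated RNA libraries each, are induced cells with Zfp143 siRNA, induced cells with control siRNA, uninduced cells with Zfp143 siRNA and uninduced cells with control siRNA. Induction therefore differs from the uninduced state in serum and in days of culture together, and their parts cannot be told apart. The labels do not say whether replicates were separate cultures. The edgeR p-values speak of the spread among libraries within groups, pooled over the 4 groups and moderated by that of other genes. That spread may be technical only.

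The libraries held 13520906 to 19068323 estimated counts. Zfp143 itself had 14.7, 16.8 and 19.7 CPM (counts scaled to library size by TMM factors) in induced Zfp143 siRNA libraries, against 19.7, 19.3 and 19.3 CPM in induced control libraries. In uninduced cells it had 12.2, 11.9 and 10.1 CPM with Zfp143 siRNA, against 23.2, 27.8 and 39.8 CPM with control siRNA. The siRNA effect on its own target was thus seen before induction (log2 fold change -1.41, edgeR adjusted p = 6.12e-05) and was not called at the end of it (-0.18, adjusted p = 0.646). A pair of libraries stood apart: uninduced control replicate 3 had 6.02% of its counts from mitochondrial genes and induced Zfp143 siRNA replicate 1 had 1.95% and the smallest total, against 2.63% to 3.95% in the other libraries. Leaving both out changed no call of the 9 genes.

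Markers were used to check the label "myoblasts", which the induced libraries carry too. The 10 myotube markers summed to 2377 to 3005 CPM in induced Zfp143 siRNA libraries, 7115 to 8939 CPM in induced control libraries, 4.25 to 5.42 CPM in uninduced Zfp143 siRNA libraries and 3.97 to 4.01 CPM in uninduced control libraries. All 10 were called lower with Zfp143 siRNA in induced cells, and all 10 were called higher with induction under either siRNA. The 9 myoblast markers, led by Des (desmin), summed to 1936 to 2383, 2741 to 3212, 656 to 747 and 653 to 744 CPM in the groups in the same order. Des alone averaged 841, 1322, 372 and 304 CPM, a large part of each sum. Of the 8 tested, induction raised 7 and lowered 1 under control siRNA, and raised 7 and lowered 0 under Zfp143 siRNA, by call. The induced groups thus held myotube RNA and a higher sum of these markers, which is not a measure of the number of myoblasts. In bulk RNA, fewer cells of a type and less RNA per cell cannot be told apart, and how much of any change given here goes with the share of myotubes was not tested.

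Lists for other kinds of cell were read in the same way, because several of the 9 genes are known from brain, fat and mesenchyme. The 10 neuronal markers summed to between 12.8 and 27.3 CPM over all libraries, led by Stmn2 in 3 groups and by Tubb3 in uninduced control cells, with the defining genes Rbfox3 and Snap25 at 0 in all 12 libraries. The 10 preadipocyte and adipocyte markers, led by Lpl, summed to 789 to 938 and 782 to 894 CPM in induced cells with Zfp143 and control siRNA, and to 330 to 344 and 352 to 369 CPM in the uninduced groups, with Lep at 0 throughout. The 10 fibroblast and smooth muscle markers, led by the collagen gene Col3a1, summed to 9531 to 11182 CPM in induced Zfp143 siRNA cells, 14086 to 15314 CPM in induced control cells, 601 to 762 CPM in uninduced Zfp143 siRNA cells and 1078 to 1359 CPM in uninduced control cells, with Thy1 at 0 in all but the first group. The fat and fibroblast lists were thus higher in every induced than in every uninduced library, and the neuronal list was not. The 7 endothelial markers, led by Tek or Vwf, stayed between 2.50 and 7.79 CPM, with Tie1 at 0 throughout. The 7 macrophage and leukocyte markers, led by Cd14, stayed between 18.5 and 39.2 CPM, with Adgre1 at 0 throughout. The collagen-rich list moved with induction alongside Peg3 and Mest, and its part in their rise was not tested.

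Start sequences of the tested genes are printed here because they hold annotated starts of these genes and because the ZNF143 and myogenic factors are known to bind near gene starts. They are RefSeq starts on build GRCm38.p6, 250 bases before to 50 bases after the start, written along the gene's own strand. All 9 genes matched, with 13 starts. The windows shown are Peg3 at chr7:6730370-6730669 (minus strand), Mest at chr6:30733256-30733555 (plus strand, its upstream start), Plagl1 at chr10:13090582-13090881 (plus strand) and Grb10 at chr11:12037371-12037670 (minus strand). Mest has 2 further starts and Grb10 1, not shown, and which start was used in these cells was not measured. Capitals mark GGGGCCCC in Peg3, CAGCTG in Mest and, in Grb10, a match to CCANNATGC read on the opposite strand.
Peg3: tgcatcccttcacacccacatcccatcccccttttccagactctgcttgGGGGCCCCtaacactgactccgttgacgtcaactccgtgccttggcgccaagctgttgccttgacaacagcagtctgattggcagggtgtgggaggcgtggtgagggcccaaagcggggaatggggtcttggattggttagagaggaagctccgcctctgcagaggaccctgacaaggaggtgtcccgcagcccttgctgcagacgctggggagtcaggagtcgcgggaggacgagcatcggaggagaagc
Mest: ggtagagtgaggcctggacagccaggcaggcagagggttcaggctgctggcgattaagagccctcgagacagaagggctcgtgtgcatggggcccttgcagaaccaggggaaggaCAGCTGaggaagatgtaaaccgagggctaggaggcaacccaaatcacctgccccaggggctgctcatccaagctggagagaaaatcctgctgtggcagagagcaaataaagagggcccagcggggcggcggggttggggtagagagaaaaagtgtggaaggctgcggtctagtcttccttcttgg
Plagl1: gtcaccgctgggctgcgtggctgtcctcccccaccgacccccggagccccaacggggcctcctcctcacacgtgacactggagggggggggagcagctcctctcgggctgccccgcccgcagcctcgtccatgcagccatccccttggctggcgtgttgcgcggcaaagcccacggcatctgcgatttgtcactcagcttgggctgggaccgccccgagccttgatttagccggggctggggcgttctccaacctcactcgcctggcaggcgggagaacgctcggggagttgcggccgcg
Grb10: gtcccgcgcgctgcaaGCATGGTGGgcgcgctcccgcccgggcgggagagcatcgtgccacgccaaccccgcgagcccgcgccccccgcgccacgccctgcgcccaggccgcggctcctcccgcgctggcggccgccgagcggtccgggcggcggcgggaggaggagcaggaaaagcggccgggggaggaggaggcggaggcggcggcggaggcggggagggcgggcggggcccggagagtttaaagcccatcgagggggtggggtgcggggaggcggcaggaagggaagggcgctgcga

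Those letters are short stretches of known recognition sequences, searched on both strands without overlap among the matches found. CCANNATGC lies within the site of ZNF143 and was in 4.37% of 32851 starts of 27025 genes; among the 13 starts it was in 1, that of Grb10, at bases 234 to 226 before the start. CAGCTG, the E-box bound by MyoD and myogenin, was in 16.3% of all starts and in 1 of the 13, the upstream start of Mest, at bases 135 to 130 before it. GGGGCCCC lies within the site of PLAGL1 and was in 1.08% of all starts and in 1 of the 13, that of Peg3, at bases 201 to 194 before it. The printed Plagl1 window held no match to any of these letters. The windows were rich in GC: 61.3% for Peg3, 59.3% for Mest, 70.7% for Plagl1 and 80.0% for Grb10, against a median of 52.7% over all starts. The Grb10 window held 45 CG pairs, the Plagl1 window 26, the Peg3 window 13 and the Mest window 8, against a median of 7. The Grb10 start that is not shown held 52.3% GC and 9 CG pairs, close to those medians. The Mest starts that are not shown held 62.7% and 62.0% GC and 17 CG pairs each, and no match to the letters searched. A match describes letters only; no binding was measured here.

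**Figure D1:**
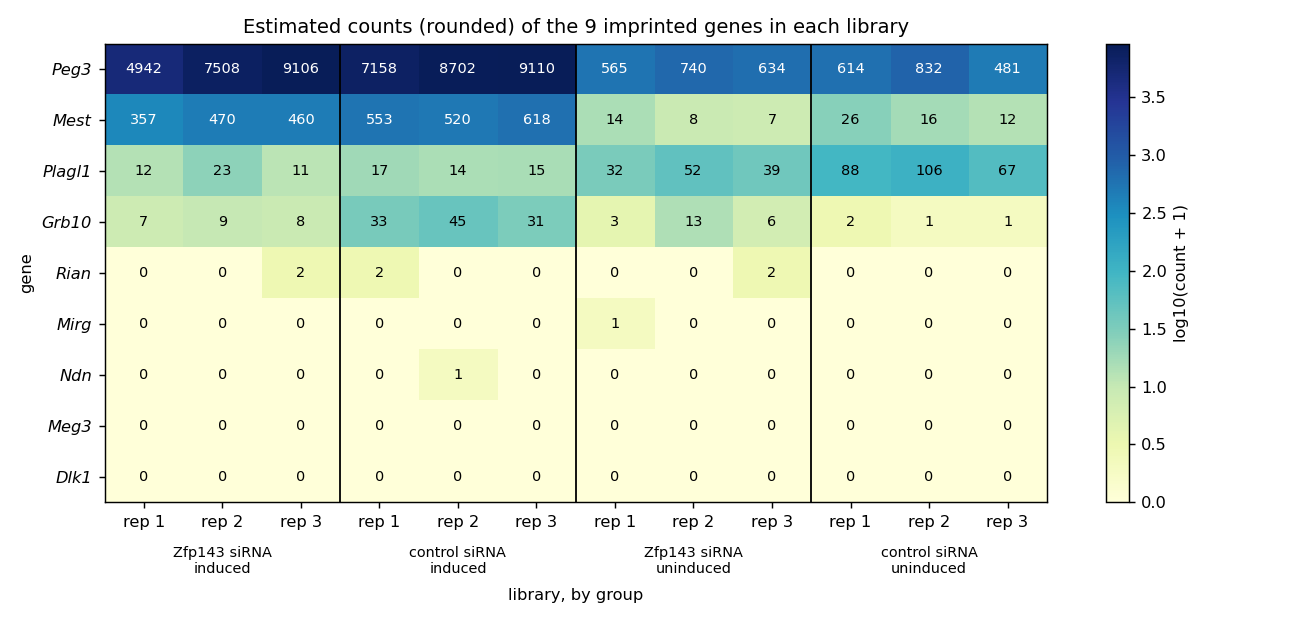
Rounded estimated counts of the 9 imprinted genes (rows) in each of the 12 libraries (columns, by group), coloured by log10(count + 1). Peg3 has 481 to 9110 counts, Mest, Plagl1 and Grb10 follow, and the lower 5 genes have at most 2 counts in any library.

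Plagl1, also called Zac1, encodes a zinc finger transcription factor that in mice is known to raise the expression of other imprinted genes. Of the 4 tested genes it alone fell with induction under both siRNAs. It had 12, 23 and 11 counts in induced Zfp143 siRNA libraries, 17, 14 and 15 in induced control libraries, 32, 52 and 39 in uninduced Zfp143 siRNA libraries and 88, 106 and 67 in uninduced control libraries. In CPM these were 0.829 ± 0.295, 0.803 ± 0.0748, 2.37 ± 0.638 and 5.00 ± 0.733 (mean ± SD, n = 3 in each group). All 6 induced libraries lay below all 6 uninduced ones, and the uninduced Zfp143 siRNA libraries lay below all uninduced control libraries.

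In uninduced cells Plagl1 stood at 47.3% of control with Zfp143 siRNA (log2 fold change -1.08, SE 0.275, 95% interval -1.67 to -0.49, edgeR adjusted p = 0.00781). An exact two-sided permutation test of log2 CPM gave p = 0.1, the smallest that 3 against 3 libraries allow. The call held in each fit that left out 1 library, with log2 fold changes between -1.31 and -0.93. In induced cells the difference was 0.05 (95% interval -0.68 to 0.78, adjusted p = 0.962), at about 15 counts a library, so changes within that interval were not detectable at this depth. The difference between the siRNA effects in the induced and the uninduced state was 1.13 (SE 0.439, adjusted p = 0.0785). It was not called, but passed the threshold without uninduced Zfp143 siRNA replicate 2 (1.36, adjusted p = 0.0443) and without induced Zfp143 siRNA replicate 3 (1.37, adjusted p = 0.0431). Induction took Plagl1 to 35.3% of the uninduced level with Zfp143 siRNA (-1.50, SE 0.315, adjusted p = 0.000627) and to 16.2% with control siRNA (-2.63, SE 0.306, adjusted p = 2.31e-06).

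Peg3 encodes a large zinc finger protein read from the paternal copy and known from placenta, brain and progenitor cells, muscle satellite cells among them. It was the most abundant of the 9 genes in every group. Its levels were 328, 372 and 456 CPM in induced Zfp143 siRNA libraries and 373, 459 and 478 CPM in induced control libraries. In uninduced cells they were 32.2, 43.7 and 35.8 CPM with Zfp143 siRNA and 33.4, 45.7 and 31.6 CPM with control siRNA. Every induced library was above every uninduced one, and within either state the ranges of the siRNA groups overlapped.

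Induction raised Peg3 10.3-fold with Zfp143 siRNA (log2 fold change 3.37, SE 0.174, adjusted p = 8.64e-10) and 11.8-fold with control siRNA (3.56, SE 0.174, 95% interval 3.19 to 3.93, adjusted p = 3.95e-10). The siRNA comparison gave -0.18 in induced cells (95% interval -0.54 to 0.18, adjusted p = 0.634) and 0.01 in uninduced cells (-0.36 to 0.39, adjusted p = 0.971). Neither passed the threshold, and the intervals leave room for changes of up to 0.54 on the log2 scale. The difference between the siRNA effects was -0.19 (SE 0.246, adjusted p = 0.625).

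Zim1 and Usp29 lie beside Peg3 in the same imprinted domain; Usp29 is read from the paternal copy like Peg3, and Zim1 from the maternal copy. The RefSeq start windows of Peg3 and Usp29 lie on opposite strands, pointing away from each other, and share 263 bases, so the Peg3 window printed above holds most of the Usp29 one. Zim1 had 72.8, 76.0 and 94.4 CPM in induced Zfp143 siRNA libraries, against 125, 124 and 155 CPM in induced control libraries. In uninduced cells it had 1.66, 3.25 and 2.37 CPM with Zfp143 siRNA, against 2.83, 1.92 and 1.25 CPM with control siRNA. Both induced groups were far above both uninduced ones, and the induced siRNA groups did not overlap.

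Zim1 rose with induction by a log2 fold change of 5.06 with Zfp143 siRNA (SE 0.243, adjusted p = 2.10e-10) and of 6.05 with control siRNA (SE 0.252, adjusted p = 3.34e-11). It was called lower with Zfp143 siRNA in induced cells (-0.73, SE 0.192, adjusted p = 0.0241), where Peg3 was not called; whether the genes differ in this was not tested. Its own interaction did not pass the threshold (-0.99, SE 0.350, adjusted p = 0.0553). Usp29 was low, with 8, 9 and 27 counts in induced Zfp143 siRNA libraries, 6, 33 and 38 in induced control libraries, 1, 4 and 5 in uninduced Zfp143 siRNA libraries and 3, 6 and 2 in uninduced control libraries. Usp29 passed the filter on low counts only through induced libraries, so its difference between the states is partly how it came to be tested. Under that limit, it was higher in induced cells with Zfp143 siRNA (1.99, SE 0.816, adjusted p = 0.0312) and with control siRNA (2.64, SE 0.774, adjusted p = 0.00469). Induced control replicate 1 lay within the range of the uninduced control libraries.

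Mest encodes a membrane-bound protein of the alpha/beta hydrolase fold, read from the paternal copy and known as a marker of growing mesoderm and expanding fat tissue. It went with induction in the same direction as Peg3. It had 23.7, 23.3 and 23.0 CPM in induced Zfp143 siRNA libraries and 28.8, 27.4 and 32.4 CPM in induced control libraries. Uninduced cells had 0.799, 0.472 and 0.396 CPM with Zfp143 siRNA and 1.41, 0.878 and 0.788 CPM with control siRNA. The induced and uninduced libraries were wide apart, the induced siRNA groups did not overlap, and the uninduced siRNA groups overlapped in 1 value of each.

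Induction raised Mest 41.5-fold with Zfp143 siRNA (log2 fold change 5.37, SE 0.275, adjusted p = 5.90e-11) and 28.3-fold with control siRNA (4.82, SE 0.228, adjusted p = 5.49e-11). With Zfp143 siRNA in uninduced cells it was called lower, at 53.9% of control (-0.89, SE 0.319, 95% interval -1.57 to -0.21, adjusted p = 0.0395). That call rested on 14, 8 and 7 counts in Zfp143 siRNA libraries, against 26, 16 and 12 in control libraries. It was lost without uninduced control replicate 1 (-0.58, adjusted p = 0.241), without uninduced Zfp143 siRNA replicate 2 (-0.79, adjusted p = 0.112) and without uninduced Zfp143 siRNA replicate 3 (-0.70, adjusted p = 0.157). It was also lost, at nearly the same fold change, without induced control replicate 1 or induced Zfp143 siRNA replicate 2 (adjusted p = 0.0506 for each). The exact two-sided permutation p was 0.2.

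In induced cells the Mest difference was -0.34 (95% interval -0.68 to 0.00) and was not called (adjusted p = 0.252), although all 3 Zfp143 siRNA libraries were below all 3 control libraries. The exact two-sided permutation p there was 0.1, again the smallest possible. The siRNA effects in the induced and the uninduced state differed by 0.55 (SE 0.357, adjusted p = 0.284). Copg2 overlaps Mest on the opposite strand, and these libraries do not keep strand. Copg2, a coatomer subunit gene of secretory vesicles, averaged 71.5 ± 12.7 CPM in induced Zfp143 siRNA cells, 71.6 ± 2.73 CPM in induced control cells, 67.2 ± 2.82 CPM in uninduced Zfp143 siRNA cells and 85.8 ± 22.8 CPM in uninduced control cells (SD, n = 3 each). It was called in none of the 5 comparisons by edgeR (unadjusted p between 0.0539 and 0.995).

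Grb10 encodes an adaptor that binds the activated insulin and IGF1 receptors and damps their signal. It had 7, 9 and 8 counts in induced Zfp143 siRNA libraries and 33, 45 and 31 in induced control libraries. Uninduced cells had 3, 13 and 6 counts with Zfp143 siRNA and 2, 1 and 1 with control siRNA. The induced control libraries stood above all other libraries, the uninduced control libraries below all others, and the ranges of the Zfp143 siRNA groups of both states overlapped. Grb10 reached the filter on low counts only through the induced control group, so the difference of that group from the others is partly how it came to be tested, and the 3 comparisons below that use that group are given as values under this limit.

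In CPM, Grb10 averaged 0.437 ± 0.0332 in induced Zfp143 siRNA cells, 1.91 ± 0.407 in induced control cells, 0.426 ± 0.308 in uninduced Zfp143 siRNA cells and 0.0764 ± 0.0285 in uninduced control cells (SD, n = 3 each). With Zfp143 siRNA in induced cells it was 4.32-fold lower (log2 fold change -2.11, SE 0.440, 95% interval -3.05 to -1.17, adjusted p = 0.00441), with -2.21 to -1.92 on leaving out any 1 library. The control group of that comparison is the one that brought Grb10 past the filter. In uninduced cells it was higher with Zfp143 siRNA (2.36, SE 0.776, adjusted p = 0.0143). Over the 22 and 4 counts of those groups the ratio was 5.47, with a 95% exact interval of 1.86 to 21.8 that covers counting error only. That call was lost without uninduced Zfp143 siRNA replicate 2 (1.64, adjusted p = 0.0995) and without uninduced control replicate 2 (2.16, adjusted p = 0.0574).

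The siRNA effects on Grb10 in the induced and the uninduced state differed by -4.47 in log2 units (SE 0.892, adjusted p = 0.00101), a value that draws on the induced control group too. With no count filter, the difference was -4.45 (edgeR adjusted p = 3.06e-05) and that in induced cells -2.11 (adjusted p = 0.00110). These were the smallest adjusted p of the alternatives run. On leaving out 1 library they reached 0.00480 for the difference and 0.0342 in induced cells by edgeR. The fit with no filter draws on the same induced control group, so it does not lift the limit given above. Induction with Zfp143 siRNA gave a log2 fold change of 0.04 (95% interval -1.04 to 1.11, adjusted p = 0.949). Induction with control siRNA gave 4.51 (SE 0.736, adjusted p = 5.46e-06), and the ratio of 109 to 4 summed counts was 24.7 (95% exact interval 9.37 to 92.2). The fall with Zfp143 siRNA in induced cells went with lower myotube markers in the same libraries, whose summed levels are given above; their part in it was not tested.

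Ddc, the gene of aromatic L-amino acid decarboxylase, is the imprinted neighbour of Grb10. It had 11, 22 and 16 counts in induced Zfp143 siRNA libraries and 31, 40 and 45 in induced control libraries. In uninduced cells 1 count was found in 1 Zfp143 siRNA library and 0 in the control libraries. Its groups lay in the order of those of Grb10 in induced cells, and in uninduced cells it was under the floor of 3 counts in every library. Ddc passed the filter on low counts only through induced libraries, so its difference between the states is partly how it came to be tested. That floor of 3 counts is about the 95% upper limit of counting error for a library with 0 counts. Against it, Ddc was at least 11.7-fold higher in induced than in uninduced control cells. With Zfp143 siRNA the ratio of 49 to 1 summed counts was 46.3 (95% exact interval 7.92 to 1864). In induced cells the ratio of Zfp143 siRNA to control counts was 0.438 (0.307 to 0.616, counting error only), and the edgeR adjusted p was 0.0741.

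**Figure D2:**
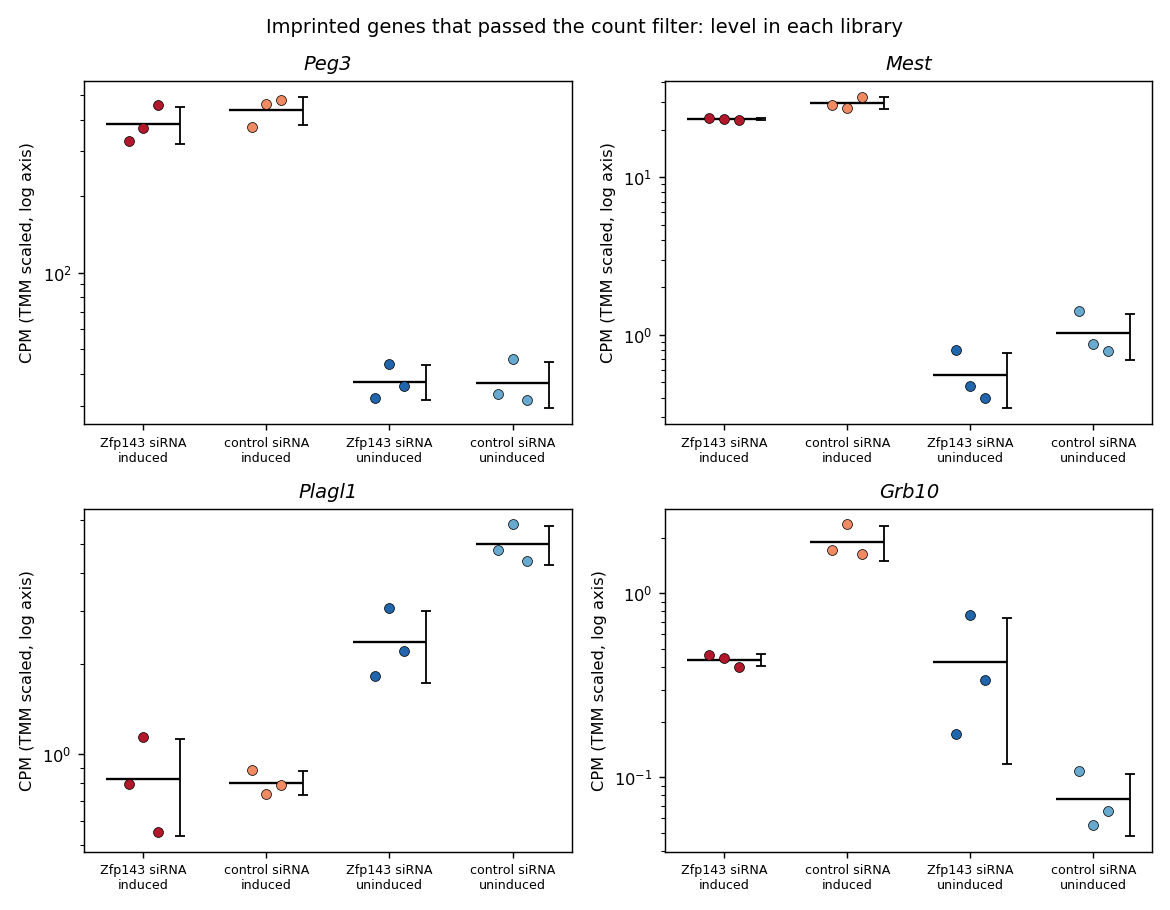
CPM (TMM scaled, log axis) of Peg3, Mest, Plagl1 and Grb10 in each library, with the mean (horizontal line) and SD (bar at its right) of the 3 libraries of each group. Peg3 and Mest split by induction, Plagl1 is lowest in both induced groups, and Grb10 is highest in induced control cells. Grb10 passed the filter on low counts only through that group.

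**Figure D3:**
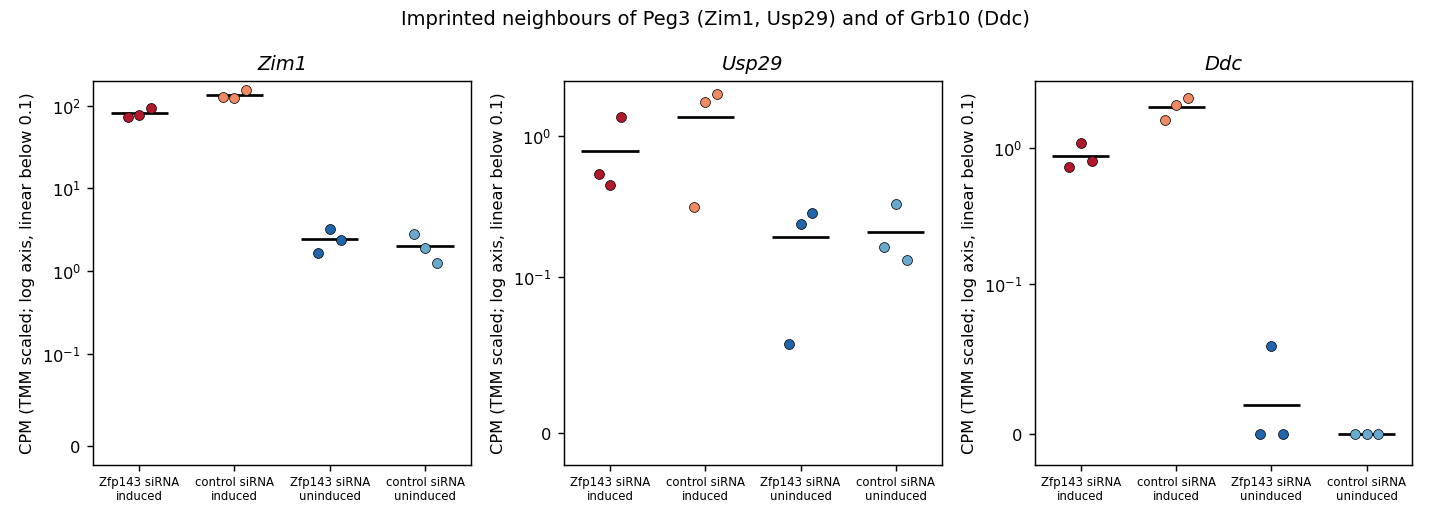
CPM (TMM scaled, log axis that is linear below 0.1) of Zim1 and Usp29, neighbours of Peg3, and of Ddc, neighbour of Grb10, in each library, with the group mean as a line. Zim1 and Ddc are higher in every induced library than in any uninduced one, and Ddc is at 0 in the 3 uninduced control libraries. Usp29 and Ddc passed the filter on low counts only through induced libraries.

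Dlk1, Ndn, Meg3, Rian and Mirg were at or near 0 in all 12 libraries. Dlk1 encodes a transmembrane protein related to the Notch ligands that is known to hold back fat cell formation and to act in muscle growth. Its count was 0 in every library. Ndn encodes necdin, a MAGE family protein known from neurons and muscle progenitors. It had a single count, in induced control replicate 2. With 0 counts in a library, 3 counts are the most that counting error allows, which is 0.149 to 0.199 CPM depending on the library. Levels under that were not detectable at this depth.

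Meg3, Rian and Mirg are noncoding RNAs read from the maternal copy of the Dlk1 to Dio3 interval; Rian hosts small nucleolar RNAs and Mirg a large cluster of microRNAs. Meg3 had 0 counts in every library. Rian had 6 counts in all, as 2 in induced Zfp143 siRNA replicate 3, 2 in induced control replicate 1 and 2 in uninduced Zfp143 siRNA replicate 3. Mirg had 1 count, in uninduced Zfp143 siRNA replicate 1. None of these 5 genes entered a test, and no group difference can be given for them.

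The emptiness extended over the whole interval. Matched by ID to the order of genes in the GENCODE M21 annotation, 98 genes from Dlk1 to Dio3 were in the table. Of these, 12 had any count, 168 counts in all over the 12 libraries. The predicted noncoding gene Gm34719 took 117 of the 168 and was the 1 gene of the interval that passed the filter. None of the 59 annotated microRNA genes there had a count, but a library made from polyadenylated RNA and selected for longer fragments does not hold mature microRNAs, so this says nothing on their level. Rtl1, the paternally read retrotransposon-derived gene of the interval, had 0 counts, and Dio3, a thyroid hormone deiodinase, had 1. Begain, next to Dlk1, had 8 counts with at most 2 in a library.

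Ordered by TPM, which divides by transcript length, Peg3 led in every group: 79.0 TPM in induced Zfp143 siRNA cells, 80.7 in induced control cells, 4.85 in uninduced Zfp143 siRNA cells and 5.30 in uninduced control cells. Mest came next in induced cells, with 21.6 TPM with Zfp143 siRNA and 25.2 TPM with control siRNA. Plagl1 came next in uninduced cells, with 0.642 TPM with Zfp143 siRNA and 1.50 TPM with control siRNA. Mest followed it there with 0.318 TPM with Zfp143 siRNA and 0.690 TPM with control siRNA. In uninduced control cells the ranges of Plagl1 (0.959 to 1.98 TPM) and Mest (0.386 to 1.03 TPM) overlapped, so their order there is within the spread. Grb10 was last in 3 groups, and in induced control cells, at 0.703 TPM, it was above Plagl1 at 0.317 TPM with no overlap of ranges.

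Each siRNA comparison shares its groups with the induction comparisons, so the calls below are not independent of each other. With Zfp143 siRNA in uninduced cells 1 of the 4 tested genes was called higher (Grb10) and 2 lower (Plagl1, Mest), where 15.4% of all 15030 tested genes were called higher and 17.1% lower, 32.5% in all. In induced cells 0 were called higher and 1 lower (Grb10), against 3.73% and 5.77% of all tested genes, 9.49% in all; the unadjusted p of Mest there was 0.0528. With induction under Zfp143 siRNA 2 were called higher (Peg3, Mest) and 1 lower (Plagl1), against 36.0% and 30.1% of all tested genes, 66.1% in all. With induction under control siRNA 3 were called higher (Peg3, Mest, Grb10) and 1 lower (Plagl1), against 33.2% and 30.9%, 64.1% in all. The interaction was called for 1 of the 4 (Grb10, lower), against 11.8% lower and 10.6% higher, 22.5% in all. The calls of Grb10 in induced cells, with induction under control siRNA and in the interaction all use the group through which it passed the filter. With most genes called in the induction comparisons, a call there sets the 4 genes apart from few others, and it is their fold changes that carry the description.

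**Figure D4:**
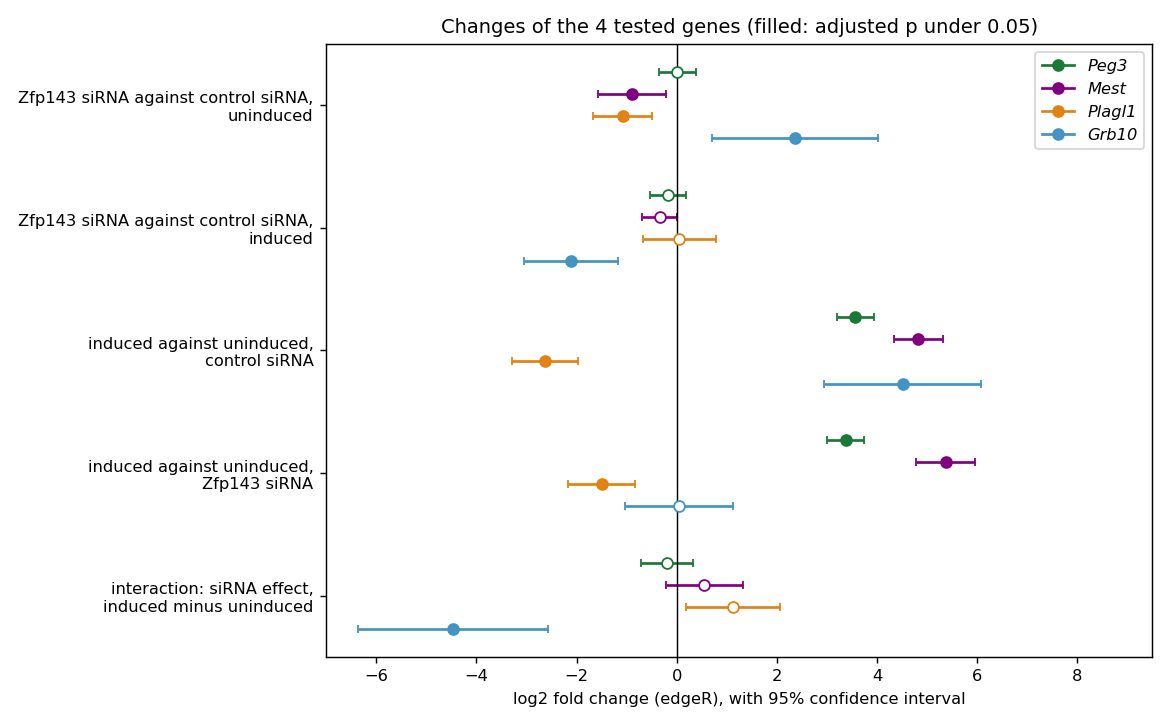
Log2 fold changes of the 4 tested genes (edgeR, points) with 95% confidence intervals (bars) in the 5 comparisons; filled points have an adjusted p under 0.05. Peg3 and Mest lie far to the right with induction under either siRNA, Plagl1 to the left, and Grb10 changes side between the siRNA comparisons. Grb10 passed the filter on low counts only through the induced control group.

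As a description over the 12 libraries, which share their 4 groups and 1 table, Peg3 and Mest had a Pearson correlation of log2 CPM of 0.979, Peg3 and Plagl1 of -0.896, and Mest and Plagl1 of -0.862. Grb10 had 0.736 with Peg3, 0.673 with Mest and -0.740 with Plagl1. Among tested genes of at least 5 CPM, the patterns most like Peg3 were those of Adamts5 (r = 0.997), Ccpg1 (0.996) and Stard13 (0.995). The patterns most like Mest were those of Bmf, Ryr1 and Fndc1 (0.995 each). Ryr1 is the calcium release channel of skeletal muscle. Most like Plagl1 were Nfx1 (0.990), Pmpca (0.979) and Taf15 (0.979). Most like Grb10 were Prune1 (0.960), Snx9 (0.954) and Chrnd (0.946), the last a subunit of the muscle acetylcholine receptor. These values do not separate the difference between states from that between siRNAs, and they say nothing of shared control.

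The imprinted pair left out of the 9, Igf2 and H19, also rose with induction. Igf2 averaged 172 CPM in induced Zfp143 siRNA cells, 202 in induced control cells, 2.91 in uninduced Zfp143 siRNA cells and 1.88 in uninduced control cells, and its log2 fold changes with induction were 5.88 and 6.73 with Zfp143 and control siRNA. H19 averaged 5104, 5709, 275 and 179 CPM in the same order, with 4.21 and 4.99. Whether these changes differ from that of Peg3 was not tested.

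A list of other imprinted genes was read beside the 9, to give the setting. Of 48 symbols, 46 were in the table and 28 were tested. With Zfp143 siRNA 4 were called higher and 4 lower in uninduced cells (28.6% of 28, against 32.5% of all tested genes), and 1 higher and 3 lower in induced cells (14.3%, against 9.49%). The medians were 0.09 and -0.13 on the log2 scale, against -0.04 and -0.03 over all tested genes; with Ddc, whose uninduced control count is 0, set to its bound the first is 0.03. With induction 12 were called higher and 6 lower under each siRNA (64.3%, against 66.1% of all tested genes under Zfp143 siRNA and 64.1% under control siRNA), with medians of 0.17 under Zfp143 siRNA and 0.37 under control siRNA, against 0.10 and 0.03 over all tested genes. Some of the 28, Usp29, Ddc and Nnat among them, passed the filter on low counts only through libraries of 1 state. The induction calls and medians are thus partly how those genes came to be tested. The interaction was called for 1 higher and 4 lower (17.9%, against 22.5%). The shares called with the siRNA in uninduced cells, with induction and in the interaction were thus near or below those of all tested genes.

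Among those 28, Peg10, a paternally read gene of retrotransposon origin, moved with the siRNA in both states. It averaged 85.2 ± 16.3 CPM in induced Zfp143 siRNA cells against 49.1 ± 4.75 CPM in induced control cells, and 17.4 ± 1.52 CPM in uninduced Zfp143 siRNA cells against 64.3 ± 9.86 CPM in uninduced control cells (SD, n = 3 each). With Zfp143 siRNA it was higher in induced cells (log2 fold change 0.80, SE 0.156, adjusted p = 0.00340) and lower in uninduced cells (-1.89, SE 0.161, adjusted p = 1.44e-06). Igf2r, the receptor that clears IGF2, was lower with Zfp143 siRNA in induced cells (-0.71, SE 0.171, adjusted p = 0.0140) and in uninduced cells (-0.98, SE 0.173, adjusted p = 0.000697). In uninduced cells Ube3a, a ubiquitin ligase gene, was also lower (-0.97), and Snrpn, of the same imprinted domain as Ndn, was higher (0.99), as were Tssc4 (0.68) and H13 (0.36). In induced cells Dcn, the gene of the matrix proteoglycan decorin, was lower too (-0.89).

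With induction the imprinted genes of smallest p were, beside Zim1, Dcn (4.61 with Zfp143 siRNA and 5.24 with control siRNA), Peg10 with Zfp143 siRNA (2.29) and Peg13 with control siRNA (1.55). Blcap (-1.33 and -0.89 with Zfp143 and control siRNA) and Commd1 (-1.18 and -1.35) were lower under both, Mcts2 was lower with Zfp143 siRNA (-1.23) and Nnat was lower with control siRNA (-2.55). Nnat was at 20 summed counts in induced Zfp143 siRNA libraries, 10 in induced control libraries, 57 in uninduced Zfp143 siRNA libraries and 56 in uninduced control libraries. It passed the filter on low counts only through uninduced libraries, so its fall with induction is partly how it came to be tested. Around Ndn, Magel2 and Snurf had 0 counts in all libraries, while Snrpn averaged 9.84 CPM in induced Zfp143 siRNA cells, 12.2 in induced control cells, 12.2 in uninduced Zfp143 siRNA cells and 6.15 in uninduced control cells. Klf14, near Mest, and Zfp264, near Peg3, had 0 counts in all libraries.

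**Figure D5:**
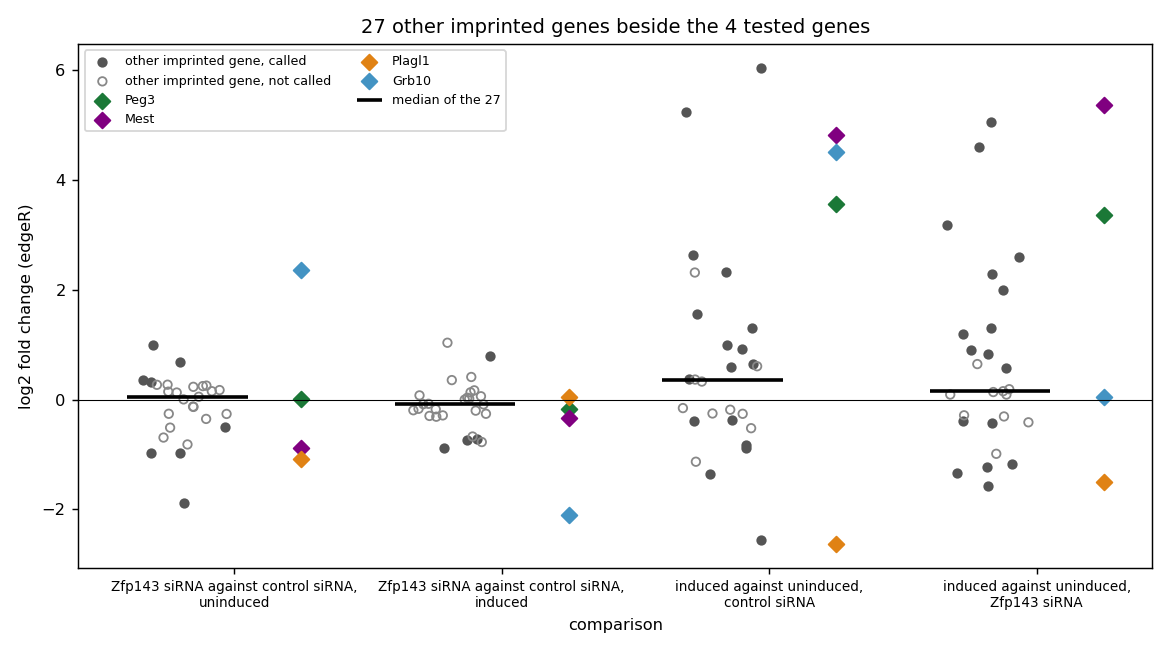
Log2 fold changes (edgeR) of 27 other imprinted genes (circles, filled where the adjusted p is under 0.05, with their median as a line) beside the 4 tested genes (diamonds) in 4 comparisons; Ddc is not drawn because its uninduced control count is 0. Mest, Peg3 and, with control siRNA, Grb10 lie among the highest values with induction, and Grb10 lies outside the circles in both siRNA comparisons. Grb10 passed the filter on low counts only through the induced control group.

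Grb10 acts at the insulin and IGF1 receptors, so 16 genes of that pathway were read beside it, of which 15 were tested. With Zfp143 siRNA in uninduced cells 2 were called higher and 7 lower (60.0%, against 32.5% of all tested genes; median log2 fold change -0.42, against -0.04). DESeq2 called 4 higher and 7 lower, and limma-voom 2 and 7. The 2 higher ones were the docking protein Irs2 (1.10, SE 0.170) and the adaptor Shc1 (0.45, SE 0.118). Among those lower were Pik3r1, the regulatory subunit of PI3 kinase (-1.37, SE 0.145), the docking protein Gab1 (-0.70, SE 0.129) and the insulin receptor Insr (-0.84, SE 0.156). In induced cells 0 of the 15 were called by edgeR, DESeq2 or limma-voom, and 2 had an unadjusted edgeR p under 0.05 (median -0.05).

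With induction 12 of the 15 were called higher and 1 lower under Zfp143 siRNA (86.7%, against 66.1% of all tested genes; median 0.79, against 0.10). Under control siRNA 10 were called higher and 0 lower (66.7%, against 64.1%; median 0.48, against 0.03). With control siRNA 11 had an unadjusted p under 0.05, and DESeq2 and limma-voom each called 11 higher and 0 lower. Irs1 rose under both (1.98 with Zfp143 siRNA and 2.28 with control siRNA). Grb14, the adaptor most like Grb10 in kind, had 3.87 and 4.35. It had 10, 5 and 5 counts in uninduced Zfp143 siRNA libraries and 4, 2 and 5 in uninduced control libraries. Grb14 passed the filter on low counts only through induced libraries, so these values are partly how it came to be tested. Pik3r1 was among the highest with Zfp143 siRNA (2.21), where Irs2 was the gene that fell (-0.98), and Akt2 was among those with control siRNA (1.00). The interaction was called for 5 higher, Pik3r1 (1.36), Gigyf2 (0.54) and Gab1 (0.61) among them, and 1 lower, Irs2 (-1.11), which is 40.0% of the 15, against 22.5% of all tested genes. DESeq2 called 5 higher and 4 lower there, and limma-voom 5 and 1, and the median was 0.32, against 0.02 over all tested genes.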

How the data were processed

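The values come from 1 deposited table of 78810 lines, of which 535 repeat a gene ID and were dropped. Reads were processed by the authors with fastp 1.0.1, STAR 2.7.11b and Salmon on GRCm39, per the submitters' processing notes; their annotation release is not given in the sources used here. Per gene, the deposited estimated count was read as the authors' Salmon value summed over transcripts, as the headers give the library name only. The deposited score column is headed scaledTPM and was read here as the authors' TPM values. The deposited length column (other unit) was read as the effective transcript length in bases. The 12 FPKM columns were not used here. A pair of letters is transposed in the column names of 2 induced Zfp143 siRNA libraries, which were taken as the libraries they otherwise name.

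Counts were rounded, filtered with filterByExpr (minimum count 10, total 15), scaled by TMM and fitted with edgeR 4.0.16 (robust quasi-likelihood, 1 mean per group over 12 libraries, 8 residual degrees of freedom) in R 4.3.3; 15030 genes were tested. Adjusted p-values are Benjamini-Hochberg over all tested genes, called under 0.05. Limma 3.58.1 (voom), DESeq2 1.42.0, other scalings and filters, a transcript length offset, a replicate term and leaving out libraries were alternatives. The fit was also run on simulated counts, with changes planted only in genes of higher mean level than Grb10 and Plagl1. It therefore says nothing of calls at counts as low as theirs. Log2 CPM used a prior count of 2. Start sequences are RefSeq's.

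The members, lists and tests were chosen with earlier results of these data known. All 9 members are named; of the imprinted and insulin lists, at most the 3 genes of smallest p per direction and comparison among those called; of each marker list, the most abundant gene; of similar patterns, the 3 highest correlations; and the neighbours of the members. Values per library of Zim1, Usp29, Copg2 and Ddc are given because they adjoin a member.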

Additional observations from a re-analysis of the deposited data

Results flagged for a closer look

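The siRNA effect, induced minus uninduced on the log2 scale, passed the threshold by edgeR for 11 of the genes named here. Grb10 had -4.47 (SE 0.892, adjusted p = 0.00101), with Zfp143 siRNA lower in induced cells and higher in uninduced cells; it passed the count filter only through the induced control group, on which this value draws. Among other imprinted genes it was 2.68 for Peg10 (SE 0.224, adjusted p = 1.98e-06), -1.30 for Snrpn (SE 0.262, adjusted p = 0.00271), -0.78 for H19 (SE 0.263, adjusted p = 0.0452), -0.45 for Blcap (SE 0.151, adjusted p = 0.0458) and -0.65 for Tssc4 (SE 0.223, adjusted p = 0.0478). In the insulin and IGF receptor list it was 1.36 for Pik3r1 (SE 0.204, adjusted p = 0.000274), -1.11 for Irs2 (SE 0.242, adjusted p = 0.00450), 0.54 for Gigyf2 (SE 0.155, adjusted p = 0.0216) and 0.61 for Gab1 (SE 0.180, adjusted p = 0.0251). For Zfp143 it was 1.22 (SE 0.257, adjusted p = 0.00358). Over all tested genes 22.5% were called in this comparison. Many of the genes named here were named because they were called, in this comparison among others. The count of 11 is therefore partly set by that choice and cannot be compared with this share.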

How the results depend on the processing

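Over the alternatives, 421 of the single-gene values of Peg3, Mest, Plagl1 and Grb10 kept their direction where called and their side of the threshold, 11 lost a call and 2 gained one; none of the alternatives run reversed a called direction. The 11 were calls of Mest and Grb10 in uninduced cells, and the 2 were the interaction of Plagl1. With the replicate block (replicate number as a term) no call of the 4 genes changed, and 1501 genes were called for Zfp143 siRNA in induced cells, 5115 in uninduced cells, 10079 for induction with Zfp143 siRNA, 9750 with control siRNA and 3564 for the interaction. Correlations of the deviations from group means lay between -0.0963 and 0.306 for same-numbered libraries, against -0.279 to 0.249 for different numbers. Of the 12 libraries, 5 correlated best with their own number, where 4 are expected if the numbers play no part. The ranges overlap and do not decide whether same-numbered libraries deviated together. The labels do not say that the numbers mark pairs, and they were not used as pairs.

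Besides the libraries named in the report, Mest in uninduced cells lost its call by library size only (adjusted p = 0.0587), limma-voom (0.0986) and without a count filter (0.0560). With only the groups of the comparison fitted, 1 of the genes was called there in place of 3, and Grb10 was no longer tested; leaving out each library gave 1 to 3. Members with a called interaction numbered 1 to 2 on leaving out each library. Zfp143 siRNA in induced cells had 1427 genes called, 901 to 2014 on leaving out each library, with 901 without induced control replicate 2, and 2525 without both libraries that stand apart. The interaction had 3375, and 5755 without both. Scaling by library size only moved the median of all genes with induction to 0.35 (main 0.10) with Zfp143 siRNA and to 0.21 (main 0.03) with control siRNA. Calls then split 6597 higher and 3371 lower (main 5406 and 4526) with Zfp143 siRNA, and for Zfp143 siRNA in induced cells 681 higher and 631 lower (main 560 and 867). As a percent of the sum of the 4 group means, Mest in induced Zfp143 siRNA cells was 44.6 by library size and 45.2 by TPM (main 42.9). By TPM, Peg3 was 2.86 in uninduced Zfp143 siRNA cells (main 4.16) and 3.12 in uninduced control cells (main 4.12), Grb10 17.5 in induced Zfp143 siRNA cells (main 15.4) and Plagl1 11.3 in induced control cells (main 8.93). The causes were not tested. Depth limits Grb10, Usp29 and Ddc everywhere, Plagl1 in induced cells and Mest in uninduced cells.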
